A study of Mus musculus with 21 samples.

Results

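The genes for the receptors of serotonin, dopamine, noradrenaline and acetylcholine were followed in the neocortex of rNLS8 mice, a TDP-43 model of amyotrophic lateral sclerosis. Members were taken by symbol alone, as all rows of the count table named for a serotonin (Htr), dopamine (Drd), adrenergic (Adra, Adrb), muscarinic (Chrm) or nicotinic (Chrn) receptor or subunit, and this gave 49 of 48474 genes. Of the 49 genes, 37 had enough counts to be tested, among 18248 tested genes in all, and 12 are given by their counts. The labels give the tissue as neocortex, whereas the text of the study names both brain cortex and hippocampus for rNLS8 mice, and the labels were followed. Bulk RNAseq covered 11 monogenic control mice, labelled WT, and 10 bigenic rNLS8 mice, labelled TG. In the bigenic mice, the transactivator tTA under the promoter of the neurofilament gene NEFH drives human TDP-43 without its nuclear localization signal (hTDP-43ΔNLS, behind a tetracycline operator), so the transgene is active mainly in neurons. Which of the transgenes a control mouse carried is not given by the labels. All 21 mice, the controls included, had received 350 µg of a non-targeting antisense oligonucleotide (ASO) in 10 µL into a cerebral ventricle when 17 to 19 weeks old. Doxycycline in the diet (200 mg/kg) kept the transgene off until 2 weeks after the injection, and tissue was taken 3 weeks after its withdrawal. The mice came from the independent cohorts A (4 WT and 3 rNLS8 mice) and B (7 WT and 7 rNLS8 mice), which are called batches here as in the labels.

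Serotonin, noradrenaline, dopamine and acetylcholine reach the neocortex mainly through the axons of neurons whose cell bodies lie in the brainstem and basal forebrain, while the receptors are made by the cortical cells themselves. Most of these receptors are G protein-coupled: Gq-coupled members activate phospholipase C, Gs-coupled members raise cyclic AMP, and Gi-coupled members lower it and often damp transmitter release. The exceptions are the ion channels built from Htr3 or Chrn subunits, which open directly when serotonin or acetylcholine binds.

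Total counts per mouse were between 20700912 and 22263809, and 3 counts corresponded to between 0.135 and 0.145 CPM, the counts scaled to a common library total. Differences are given as the log2 ratio of rNLS8 to WT mice (the log2 fold change) with its standard error (SE) and the p-value of edgeR's quasi-likelihood test adjusted over all tested genes. As a check of the genotypes, Tardbp, which encodes mouse TDP-43, was read in every library: it gave a log2 ratio of 0.62 ± 0.071 (SE, adjusted p = 1.50e-07). A row of a further copy of the symbol, Tardbp-2, gave 0.55 ± 0.074 (SE, adjusted p = 1.85e-06). Whether reads of the human transgene were counted in these rows was not tested, so the ratios cannot be read as a change of the mouse gene. In batch B Tardbp had 4405 to 5053 normalized counts in rNLS8 mice and 2507 to 2827 in WT mice. The range in batch A was 2363 to 3091 in rNLS8 mice and 2253 to 2650 in WT mice, and the library labelled rNLS8 replicate 9, at 2363 counts, lay within the WT range. The difference of that library from the median of the other rNLS8 mice of both batches had a Spearman coefficient of -0.49 with transcript length across 16117 genes, and the coefficients of the other 9 rNLS8 mice, taken likewise, were -0.21 to 0.30. Against the mean of the other 2 rNLS8 mice of batch A it was -0.52, and for rNLS8 replicate 10, set likewise against the other 2, it was 0.49. The markers of neurons were high in every mouse, between 8.69 and 9.52 as the mean log2 CPM of 6 genes. Their level was 8.69 to 9.08 in rNLS8 mice and 9.25 to 9.52 in WT mice without overlap, and 4 of the 6 were called lower. The part of this in the results on receptor genes was not tested. In bulk tissue, fewer cells of a type and less RNA per cell cannot be told apart.

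More of the receptor genes were lower in rNLS8 mice than higher. At an adjusted p under 0.05, 21 of the 37 tested genes (56.8%) were lower and 2 (5.41%) were higher, whereas 21.7% of all tested genes were lower and 23% were higher. In either direction 23 of 37 genes (62.2%) were called, beside 44.7% of all tested genes. The median log2 ratio was -0.39 over the receptor genes and -0.00068 over all tested genes. The lower genes included Chrm3, Adrb1, Htr1a, Htr7, Htr2a and Chrnb3, and the higher ones were Htr5a and Chrm2. Adrenergic genes had the highest share of lower calls (7 of 9), followed by dopamine (3 of 4), serotonin (8 of 12), nicotinic (2 of 7) and muscarinic genes (1 of 5). Of the 29 tested G protein-coupled receptors, 19 were lower and 2 were higher, with a median log2 ratio of -0.43. The 8 tested channel subunits comprised 2 lower genes and 6 that were not called, with a median of -0.11. No test of the difference between the classes or families was made. With scaling by library size alone, 14 receptor genes were lower and 5 were higher, and all tested genes split into 2752 lower and 5832 higher. Without the library labelled rNLS8 replicate 9, 17 receptor genes were lower and 2 were higher, beside 4098 lower and 4265 higher among all tested genes.

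**Figure D1:**
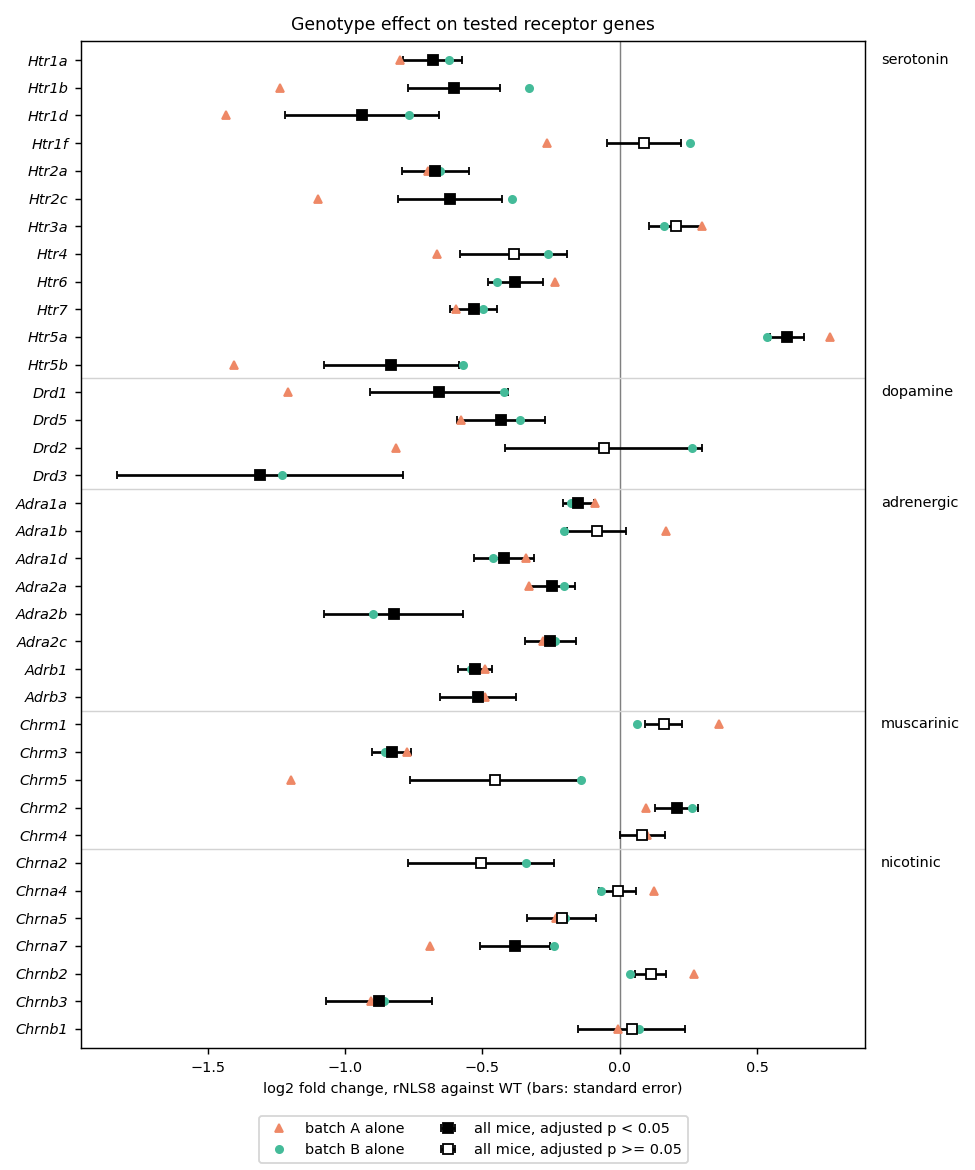
Log2 ratio (rNLS8 against WT, horizontal axis) of the tested receptor genes described here, grouped by transmitter. Squares show the fit to all mice with bars for the standard error, filled where the adjusted p is under 0.05, and triangles and circles show batch A and batch B alone. Most filled squares lie left of 0, those of Htr5a (0.61) and Chrm2 (0.21) lie right of it, and Drd3, Adra2b and Chrna2 have no batch A value.

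Both batches were also fitted alone, since the experiment was run in independent cohorts. In batch B, 12 of 38 tested receptor genes were lower (31.6%, beside 19.8% of all tested genes) and 2 were higher (5.26%, beside 19.3%), and 39.1% of all tested genes were called there. In batch A, with 3 rNLS8 mice, 6 of 35 were lower (17.1%, beside 4.83% of all tested genes) and 1 was higher (2.86%, beside 6.99%), with 11.8% of all tested genes called. Of the 21 genes called lower over all mice, 19 had a value in each batch and all 19 were negative in both, while Htr5a and Chrm2 were positive in both. Called in each batch alone were 5 genes, namely Chrm3, Adrb1, Htr1a, Htr7 and Htr5a. The interaction of genotype and batch was called for 0 genes by edgeR's test, with 1030 of all tested genes and 1 receptor gene, Htr1b, at an unadjusted p under 0.05.

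Chrm3, Adrb1 and Htr5a were the receptor genes whose normalized counts did not overlap between the genotypes (8.11% of 37, beside 7.65% of all tested genes). The former 2 were lower, as were 3.8% of all tested genes without overlap, and Htr5a was higher, as were 3.85%. Chrm3 encodes a Gq-coupled muscarinic receptor and lies on the minus strand of GRCm38 at chr13:9875486-10360847, with up to 5 exons. It ranged from 1074 to 1699 normalized counts (counts scaled to the mean library) with a median of 1414 in WT mice, and from 673 to 923 with a median of 804 in rNLS8 mice. Every rNLS8 mouse was below the lowest WT mouse. The means were 1419 ± 210 (SD, n = 11) and 803 ± 80.4 (SD, n = 10), a log2 ratio of -0.83 ± 0.069 (SE, adjusted p = 9.26e-10). Batch A gave -0.77 (adjusted p = 0.00483) and batch B -0.86 (adjusted p = 8.73e-08), so that the size was close in both.

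Adrb1, the beta adrenoceptor gene with the most counts and coupled to Gs, lies on the plus strand at chr19:56722199-56733113. Its normalized counts were 565 to 865 with a median of 662 in WT mice and 352 to 535 with a median of 467 in rNLS8 mice. Here too all 10 rNLS8 mice were below all WT mice. The means of 667 ± 72.6 (SD, n = 11) and 459 ± 51.9 (SD, n = 10) gave a log2 ratio of -0.53 ± 0.061 (SE, adjusted p = 1.59e-07).

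Htr5a moved the other way. It encodes a Gi-coupled serotonin receptor and lies on the plus strand at chr5:27842149-27855088, with up to 2 exons. WT mice had 342 to 515 normalized counts (median 462), and rNLS8 mice had 609 to 772 (median 660), all above the highest WT mouse. The means were 442 ± 50.2 (SD, n = 11) and 674 ± 53.4 (SD, n = 10), a log2 ratio of 0.61 ± 0.061 (SE, adjusted p = 1.97e-08). It was 0.76 in batch A and 0.53 in batch B.

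**Figure D2:**
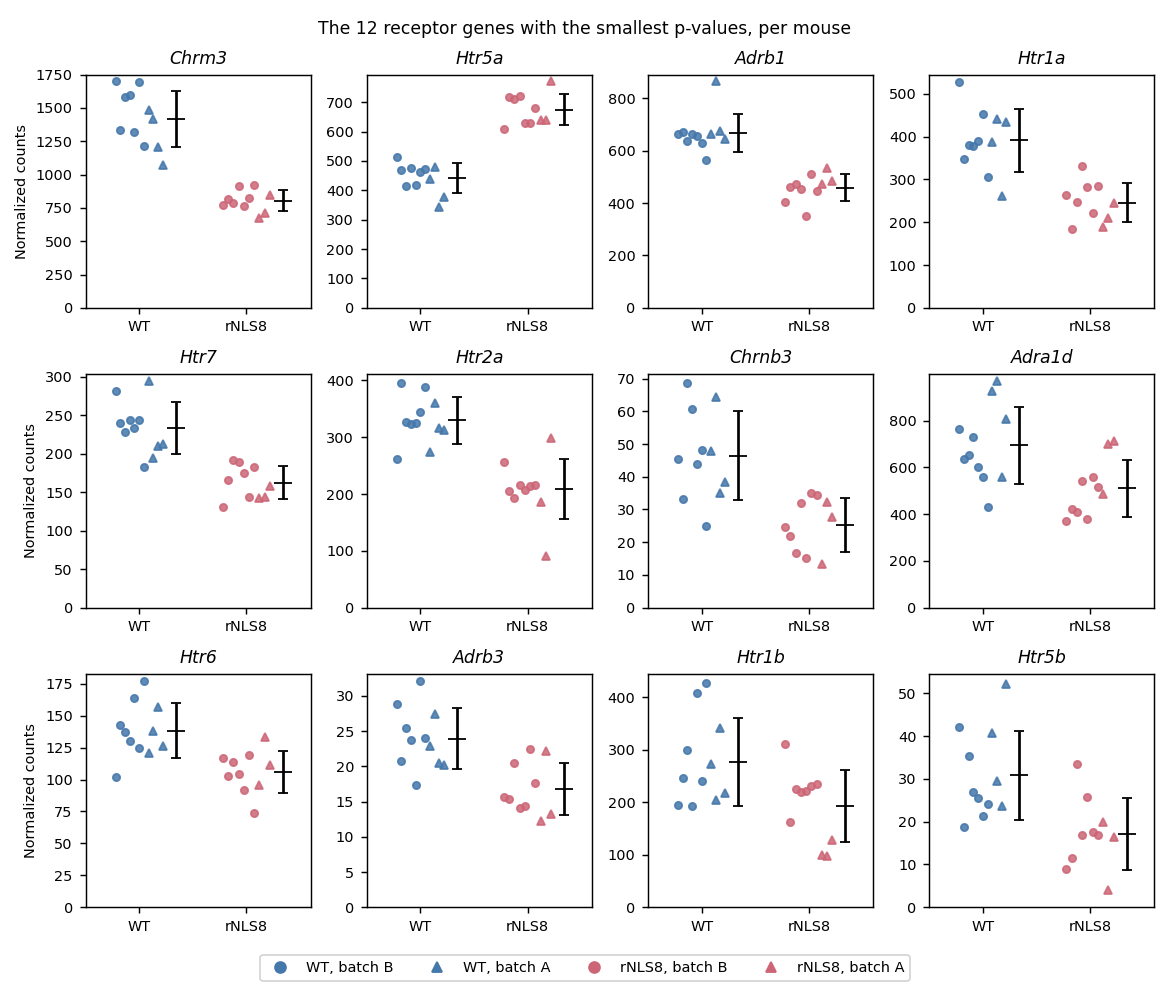
Normalized counts per mouse (vertical axes from 0) for the 12 receptor genes with the smallest p-values, with WT mice in blue and rNLS8 mice in red, circles for batch B and triangles for batch A. Black bars give the mean and SD. The groups are apart for Chrm3, Htr5a and Adrb1 and overlap in the other panels, where the lowest mice are mostly rNLS8 mice.

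Promoter sequences are shown for these 3 genes because they had the smallest adjusted p and their groups did not overlap. Each is the RefSeq window on GRCm38.p6 from 250 bases before to 50 bases after the start annotated by RefSeq, written 5′ to 3′ on the strand of the gene. That start differs from the one of the GENCODE gene models whose spans are given above, and the windows of Htr5a and Adrb1 end before the GENCODE start. Capitals mark matches to motifs searched on both strands. The GC box was searched as GGGCGG and the cyclic AMP response element by its core TGACG. The letters of the other motifs were TATAAA for the TATA box and, for the E-box, CACGTG.
Chrm3, chr13:10360754-10361053, minus strand: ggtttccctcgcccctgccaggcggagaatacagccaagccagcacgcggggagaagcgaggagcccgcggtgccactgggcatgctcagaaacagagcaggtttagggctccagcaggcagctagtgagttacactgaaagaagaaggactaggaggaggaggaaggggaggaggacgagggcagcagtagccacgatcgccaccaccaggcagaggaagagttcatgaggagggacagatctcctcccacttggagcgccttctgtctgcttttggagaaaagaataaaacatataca
Htr5a, chr5:27841697-27841996, plus strand: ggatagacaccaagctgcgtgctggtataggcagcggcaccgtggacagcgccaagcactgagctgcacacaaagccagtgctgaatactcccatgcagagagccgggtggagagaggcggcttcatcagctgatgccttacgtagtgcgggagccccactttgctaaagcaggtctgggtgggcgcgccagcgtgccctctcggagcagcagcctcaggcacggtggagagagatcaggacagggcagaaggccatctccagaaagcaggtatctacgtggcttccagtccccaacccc
Adrb1, chr19:56721867-56722166, plus strand: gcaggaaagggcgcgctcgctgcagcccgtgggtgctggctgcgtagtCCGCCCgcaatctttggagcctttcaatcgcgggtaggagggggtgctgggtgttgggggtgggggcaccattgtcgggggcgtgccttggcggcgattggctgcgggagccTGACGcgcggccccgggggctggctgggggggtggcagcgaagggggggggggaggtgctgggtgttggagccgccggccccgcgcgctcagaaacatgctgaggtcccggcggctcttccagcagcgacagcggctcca
The Adrb1 window held 1 GC box, read as CCGCCC on the strand shown, and 1 TGACG, and the windows of Chrm3 and Htr5a held none of the 4 motifs. GC made up 72.3% of the Adrb1 window, 61.3% of that of Htr5a and 57.3% of that of Chrm3, beside a median of 52.7% over 32851 promoters. Among all promoters of this length 35.7% held GGGCGG, 20.8% TGACG, 13.6% TATAAA and 7.15% CACGTG. The table held a promoter for 37 of the 49 receptor genes, of which 27 were tested, and 19 of these 27 held GGGCGG, 6 TGACG, 2 TATAAA and 3 CACGTG. A gene was counted if any of its windows held the motif, whereas the shares over all promoters are per window. The counts of genes and the shares of windows can therefore not be compared. A match is a description of letters, not of a bound site.

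Among the Gi-coupled serotonin receptors of the Htr1 group, Htr1a, Htr1b and Htr1d fell and Htr1f was not called, whereas the Gi-coupled Htr5a, described above, was higher. Htr1a, which inhibits the neurons that carry it, had 261 to 528 normalized counts (median 387) in WT mice and 185 to 331 (median 246) in rNLS8 mice. The groups overlapped, with 6 of 10 rNLS8 mice below every WT mouse. Its means were 391 ± 73.2 (SD, n = 11) and 246 ± 46.0 (SD, n = 10), a log2 ratio of -0.68 ± 0.11 (SE, adjusted p = 1.57e-05). Htr1b, a receptor on axon terminals, had 277 ± 83.5 normalized counts in WT mice (193 to 428) and 193 ± 69.1 in rNLS8 mice (97.8 to 312), a log2 ratio of -0.60 ± 0.17 (SE, adjusted p = 0.00497). Its effect was -1.24 in batch A (adjusted p = 0.00348) and -0.33 in batch B (adjusted p = 0.145), and the unadjusted p of the difference between the batches was 0.00688. An antisense gene, D430036J16Rik, shares 852 bases of exon with Htr1b. Htr1d, also found on axon terminals, had 66.0 ± 37.5 in WT mice (13.7 to 139) and 36.9 ± 18.6 in rNLS8 mice (14.1 to 70.5), a log2 ratio of -0.94 ± 0.28 (SE, adjusted p = 0.00849). The wide WT range took in all rNLS8 mice. Htr1f gave 0.09 (adjusted p = 0.629), and 0.032 to 0.16 with 1 mouse left out.

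Both tested Gq-coupled serotonin receptors fell. Htr2a, the receptor through which serotonergic hallucinogens act, had 261 to 396 normalized counts (median 326) in WT mice and 90.8 to 299 (median 211) in rNLS8 mice. Means are given with SD over 11 WT and 10 rNLS8 mice from here on. All rNLS8 mice but replicate 10 were below the lowest WT mouse, and the lowest value belonged to the library labelled rNLS8 replicate 9. Its means of 330 ± 41.5 and 208 ± 53.0 gave a log2 ratio of -0.67 ± 0.12 (SE, adjusted p = 8.38e-05). Htr2c, which is also strongly expressed in the choroid plexus, had 543 to 1502 (median 883) in WT mice and 270 to 821 (median 613) in rNLS8 mice. The log2 ratio of Htr2c was -0.62 ± 0.19 (SE, adjusted p = 0.00979), from -1.10 in batch A to -0.39 in batch B (adjusted p = 0.0975). Over mice, its level and that of 6 choroid plexus markers had a Pearson r of 0.66 (rho 0.75, adjusted permutation p = 0.11 for r and 0.0731 for rho) in WT and 0.50 (rho 0.58, adjusted permutation p = 0.343 and 0.233) in rNLS8 mice, and without the 2 outermost mice r was 0.53 and 0.48. Those 6 markers were not called.

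Of the Gs-coupled serotonin receptors, Htr6 and Htr7 fell, and Htr4 had -0.39 (adjusted p = 0.114), which passed without WT replicate 2 (adjusted p = 0.0371). Htr7 had 183 to 295 normalized counts (median 234) in WT mice and 131 to 191 (median 162) in rNLS8 mice, of which 8 were below all WT mice. Its means were 233 ± 33.8 and 162 ± 21.6, with a log2 ratio of -0.53 ± 0.085 (SE, adjusted p = 1.77e-05), and the effect was -0.60 in batch A and -0.50 in batch B. Htr6, found on primary cilia of neurons, had means of 138 ± 21.4 (102 to 177) and 106 ± 16.6 (73.6 to 133), a log2 ratio of -0.38 ± 0.10 (SE, adjusted p = 0.0031). Htr5b, the rodent relative of Htr5a, moved opposite to it. It had 30.9 ± 10.4 normalized counts in WT mice (18.7 to 52.1) and 17.1 ± 8.32 in rNLS8 mice (4.03 to 33.5), a log2 ratio of -0.83 ± 0.25 (SE, adjusted p = 0.00793), with 7 of 10 rNLS8 mice below the lowest WT mouse. The channel subunit Htr3a, a marker of a class of cortical interneurons, had 123 as median in WT and 149 in rNLS8 mice, and its log2 ratio of 0.20 did not pass (adjusted p = 0.0906). It passed without any 1 of WT replicates 1 and 8 or rNLS8 replicate 1, with adjusted p down to 0.0187.

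The D1-like dopamine receptors Drd1 and Drd5, both coupled to Gs, fell, and of the D2-like ones, coupled to Gi, Drd3 fell and Drd2 was not called. Drd1 ranged from 235 to 1621 normalized counts (median 624) in WT mice and from 200.4 to 1126 (median 505) in rNLS8 mice, and 2 rNLS8 mice were below all WT mice. Its log2 ratio was -0.66 ± 0.25 (SE, adjusted p = 0.0362), with means of 741 ± 415 (SD, n = 11) and 517 ± 270 (SD, n = 10). The call was lost without any 1 of WT replicates 5, 7 and 10 or rNLS8 replicates 2, 3, 4, 8, 9 and 10, with adjusted p up to 0.10. Drd5 had 51.0 ± 13.4 and 37.9 ± 10.4, a log2 ratio of -0.43 ± 0.16 (SE, adjusted p = 0.0309). It was lost without any 1 of WT replicates 1, 7, 8 and 11 or rNLS8 replicates 3, 4, 7, 9 and 10, with adjusted p up to 0.0717. The antisense gene Gm26560 overlaps 1531 of its 3152 exon bases. Drd3 had 24.0 ± 25.6 and 10.6 ± 14.3, a log2 ratio of -1.31 ± 0.52 (SE, adjusted p = 0.0440). Its normalized counts ran from 1.06 to 74.1 in WT mice and from 0 to 47.0 in rNLS8 mice, and in each genotype the SD exceeded the mean. Of the 21 fits that left out 1 mouse, 14 kept Drd3 past the filter on low counts and 6 of these called it. It was lost without any 1 of WT replicate 8 or rNLS8 replicates 2, 3, 4, 6, 7, 9 and 10, with adjusted p up to 0.0794. Drd2, the dopamine receptor with the highest level per kilobase, had 568 ± 360 and 612 ± 367, a log2 ratio of -0.06 ± 0.36 (SE, adjusted p = 0.911), -0.81 in batch A and 0.26 in batch B. The sign of the ratio, fitted with batch as a term, is opposite to that of the means, and without the batch term the log2 ratio was 0.11.

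The dopamine receptors varied among mice together with genes of striatal projection neurons, the neurons below the cortex in which Drd1 and Drd2 are most strongly expressed. The mean log2 CPM of 7 such genes (Ppp1r1b, Adora2a, Penk and Tac1 among them) was 4.85 to 7.71 (median 6.33) in WT and 4.66 to 7.20 (median 6.14) in rNLS8 mice. Of the 7 genes, 3 were called lower (Penk and Tac1 among them), and none was at 0 in a group. For Drd1 the Pearson r with this level was 0.98 in WT mice (rho 0.91) and 0.98 in rNLS8 mice (rho 0.95), with the smallest permutation p for r that 100000 permutations can give, 1e-05, in each. Adjusted over 76 relations, the permutation p was 0.00025 for r in each genotype and 0.00627 and 0.00431 for rho. Without the 2 mice farthest from the median it was 0.96 and 0.99, and within batch B (7 mice a genotype) 0.99 in each. Drd2 gave 0.98 (rho 0.98) and 0.96 (rho 0.95), with permutation p adjusted to 0.00025 and 0.00076 for r and to 0.00076 and 0.00431 for rho, r of 0.99 and 0.95 without the 2 outermost mice, and 0.98 within batch B in each. Htr1b gave 0.88 (rho 0.85, adjusted permutation p 0.00203 for r and 0.0198 for rho) in WT and 0.90 (rho 0.84, adjusted permutation p 0.00771 and 0.0389) in rNLS8 mice, 0.92 and 0.87 without the 2 outermost mice, and 0.95 and 0.81 within batch B. These 3 were the receptor genes whose r and rho both passed in each genotype. Batch A held too few mice of a genotype for a value of its own.

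With the striatal marker level as a covariate, an alternative chosen after the data were seen, 13 receptor genes were lower and 2 were higher, beside 20.8% of all tested genes lower, 22% higher and 42.8% in either direction. Drd1 then had a log2 ratio of -0.09 (adjusted p = 0.256), and Drd2 turned to 0.78 (adjusted p = 6.93e-06). Other calls lost were those of Drd3 (-0.65, adjusted p = 0.195), Drd5 (-0.42, adjusted p = 0.0543), Htr1d (-0.42, adjusted p = 0.0804), Htr2c (-0.33, adjusted p = 0.111), Adra2a (-0.22, adjusted p = 0.0571), Adra2b (-0.54, adjusted p = 0.0688), Adra2c (-0.08, adjusted p = 0.291) and Chrm2 (0.20, adjusted p = 0.0584). Chrm3 (-0.89), Adrb1 (-0.57), Htr1a (-0.76), Htr7 (-0.57) and Htr2a (-0.67) remained lower and Htr5a (0.53) remained higher. Htr1b also remained lower, but its log2 ratio went from -0.60 to -0.31 (adjusted p = 0.0209). The direction of Drd2 and the sizes of the Drd1 and Htr1b differences thus depended on this covariate.

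**Figure D3:**
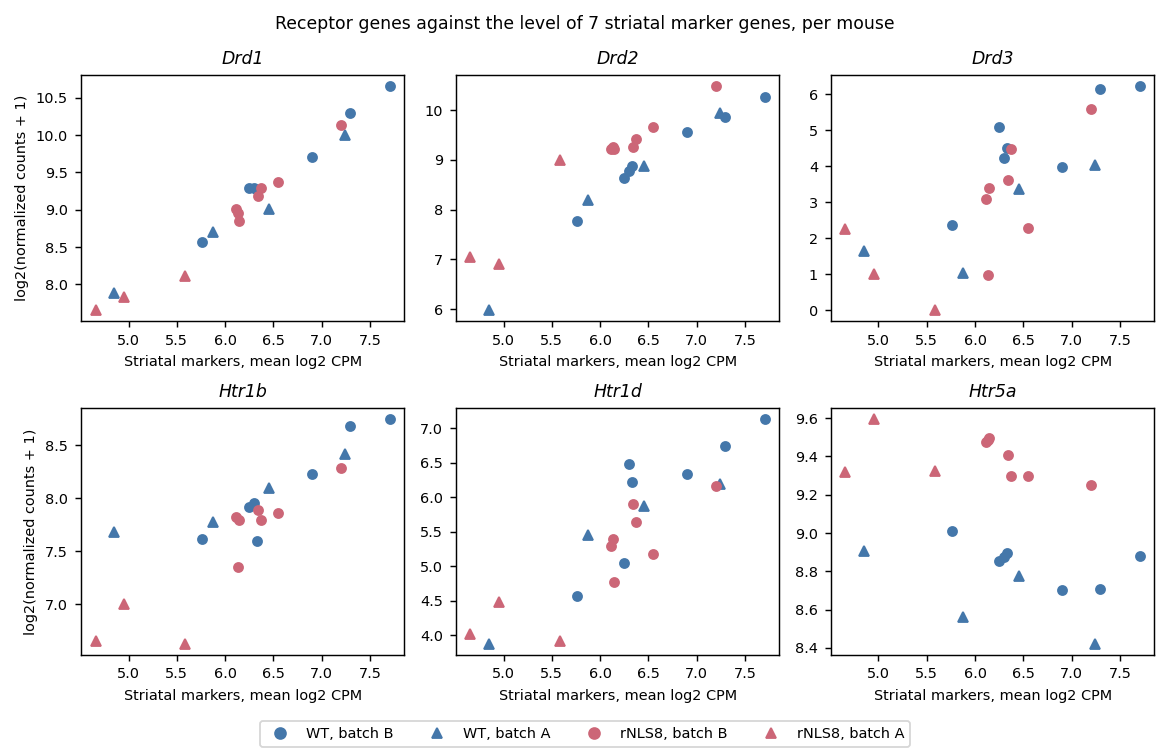
Each panel plots a receptor gene (log2 of normalized counts + 1, vertical axis) against the mean log2 CPM of 7 striatal marker genes (horizontal axis), 1 point per mouse. Drd1 and Drd2 follow the marker level closely in both genotypes (r of 0.96 or more), Drd3, Htr1b and Htr1d more loosely, and Htr5a separates the genotypes at any marker level.

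The adrenergic receptors described here were all negative. Of the alpha-1 group, which couples to Gq, Adra1d and Adra1a fell and Adra1b did not pass (-0.08, adjusted p = 0.562, and -0.16 to -0.0027 with 1 mouse left out). Adra1d had 431 to 969 normalized counts (median 652) in WT mice and 372 to 715 (median 501) in rNLS8 mice, with 4 rNLS8 mice below all WT mice. Its log2 ratio was -0.42 ± 0.11 (SE, adjusted p = 0.00264), from means of 694 ± 164 and 510 ± 123. The antisense gene Gm14285 shares 147 of its exon bases. Adra1a had 637 ± 76.7 and 579 ± 66.7, a log2 ratio of -0.15 ± 0.058 (SE, adjusted p = 0.0355). That call was lost without any 1 of WT replicates 2, 6 and 9 or rNLS8 replicates 2, 4, 6, 7 and 9, with adjusted p up to 0.072.

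All of the alpha-2 group, Gi-coupled receptors that damp noradrenaline release and also act on the receiving neuron, fell. Adra2a had 309 to 467 normalized counts (median 372) in WT and 255 to 426 (median 315) in rNLS8 mice, a log2 ratio of -0.25 ± 0.083 (SE, adjusted p = 0.0178). Its call was lost in batch A alone (adjusted p = 0.196), in batch B alone (adjusted p = 0.0866), with library size only (adjusted p = 0.0908) and without rNLS8 replicates 8 and 9 (adjusted p = 0.11). Adra2c had 539 ± 114 and 448 ± 40.1, a log2 ratio of -0.25 ± 0.092 (SE, adjusted p = 0.0284), and lost its call without any 1 of WT replicates 5, 7 and 10 or rNLS8 replicates 3 and 8, with adjusted p up to 0.0663. Adra2b, the weakest of them, had 18.5 ± 10.6 and 10.7 ± 4.39, a log2 ratio of -0.82 ± 0.25 (SE, adjusted p = 0.0102). In the beta group, coupled to Gs, Adrb3 joined Adrb1 with 23.9 ± 4.32 normalized counts in WT mice (17.3 to 32.1) and 16.8 ± 3.72 in rNLS8 mice (12.3 to 22.4), a log2 ratio of -0.52 ± 0.14 (SE, adjusted p = 0.00379). The antisense gene Gm45470 covers 839 of its 3376 exon bases.

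The muscarinic receptors did not move together. Beside the lower Chrm3, the Gi-coupled Chrm2, an autoreceptor of cholinergic neurons that cortical neurons carry too, was higher. It had 275 to 436 normalized counts (median 327) in WT mice and 257 to 499 (median 409) in rNLS8 mice, and 4 rNLS8 mice were above all WT mice while 1 was below them. Its means were 334 ± 45.8 and 393 ± 77.9, a log2 ratio of 0.21 ± 0.078 (SE, adjusted p = 0.0323). The call was lost without any 1 of WT replicates 3, 4, 6 and 7 or rNLS8 replicates 1, 3, 7 and 10, with adjusted p up to 0.0712. On the opposite strand, 9330158H04Rik shares 142 exon bases with Chrm2 and Gm22820 shares 329 with Chrm1. Chrm1, Gq-coupled like Chrm3 and the receptor gene with the most counts, had 2933 to 3918 (median 3706) in WT and 3273 to 4902 (median 3961) in rNLS8 mice. Its log2 ratio of 0.16 ± 0.066 (SE, adjusted p = 0.0528) did not pass in the fit to all mice, and passed without any 1 of WT replicate 4 or rNLS8 replicates 1, 3, 5 and 8, with adjusted p down to 0.0197. Chrm4 had 0.08 (adjusted p = 0.450, and 0.041 to 0.13 with 1 mouse left out) and the weak Chrm5 -0.45 (adjusted p = 0.251), which was -0.23 without WT replicate 5 and -0.29 without rNLS8 replicate 9.

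Of the nicotinic subunits, Chrna7 and Chrnb3 fell. Chrna7, which forms channels of a single kind of subunit with high calcium permeability, had 184 to 224 normalized counts (median 204) in WT mice and 51.4 to 196 (median 164) in rNLS8 mice, and 8 rNLS8 mice were below all WT mice. Its log2 ratio was -0.38 ± 0.13 (SE, adjusted p = 0.0168), from means of 204 ± 13.2 and 158 ± 40.2. The lowest value, 51.4, belonged to the library labelled rNLS8 replicate 9, and the next lowest was 153. Without that library the log2 ratio of Chrna7 was -0.26. Chrnb3, an accessory subunit, had 25.1 to 68.6 (median 45.3) in WT mice and 13.2 to 35.1 (median 26.0) in rNLS8 mice, a log2 ratio of -0.88 ± 0.19 (SE, adjusted p = 0.000662). The subunits of the main cortical heteromeric channel did not pass, with -0.01 ± 0.068 for Chrna4 (SE, adjusted p = 0.943) and 0.11 ± 0.055 for Chrnb2 (SE, adjusted p = 0.104). Chrnb2 passed without WT replicate 8 (adjusted p = 0.0458) or rNLS8 replicate 8 (adjusted p = 0.0472). Chrnb2, the nicotinic subunit with the most counts, had 962 to 1324 normalized counts (median 1195) in WT and 1040 to 1417 (median 1296) in rNLS8 mice, and 1365 of its exon bases are shared with Adar on the opposite strand. Chrna5, an accessory subunit, gave -0.21 (adjusted p = 0.180), Chrna2 -0.50 (adjusted p = 0.127) and the muscle-type Chrnb1 0.04 (adjusted p = 0.879).

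The 12 untested genes are described by their raw counts, summed over 11 WT and 10 rNLS8 mice. Chrna6, which lies next to Chrnb3 on chromosome 8 (27403212 to 27413944, beside 27368711 to 27399730), had 87 counts in WT mice (1 to 16 a mouse, median 7) and 22 in rNLS8 mice (0 to 5, median 2). Drd4, a Gi-coupled dopamine receptor, had 68 (1 to 10) and 35 (2 to 7). In the fit with no filter on low counts these were the untested genes that passed, with a log2 ratio of -1.97 for Chrna6 (adjusted p = 0.000376) and -0.91 for Drd4 (adjusted p = 0.0323). The cluster of Chrna3 and Chrnb4 on chromosome 9 gave 118 and 79 counts for Chrna3 and 91 and 60 for Chrnb4. Chrna10, of hair cells in the ear, had 59 and 32, with 1025 exon bases shared with Art1 on the opposite strand, and Chrna9 had 3 and 3. Of the muscle subunits, Chrna1 had 84 and 90 counts, Chrne 5 and 11 (at most 2 a mouse), and Chrnd and Chrng 0 in all mice, which allows up to 3 counts a mouse. Htr2b, which shares 252 exon bases with Psmd1 on the opposite strand, had 15 and 19 counts and the channel subunit Htr3b 7 and 4.

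**Figure D4:**
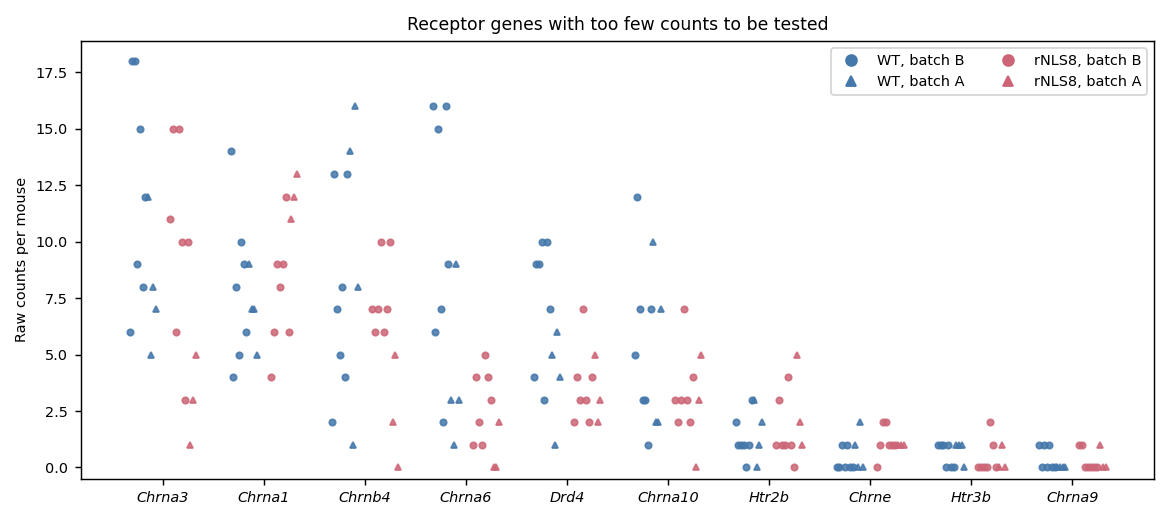
Raw counts per mouse (vertical axis) of the untested receptor genes with at least 1 count, WT in blue and rNLS8 in red, circles for batch B and triangles for batch A. No mouse exceeded 18 counts for Chrna3, and Chrna6 reached 16 in WT mice but no more than 5 in rNLS8 mice.

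Levels were compared between genes as CPM per kilobase of GENCODE M21 exons. In WT mice, Chrm4 (27.8 ± 4.79, SD, n = 11) and Chrm1 (25.7 ± 2.36) were highest and within 1 SD of each other, followed at a gap wider than the spread by Adra1d (17.1 ± 4.04). The Chrm4 model is 1 exon of 1440 bases, the shortest of the tested receptor genes, and that of Chrm1 has 6487 exon bases. Before division by length, the WT mean was 856 normalized counts for Chrm4, 3560 for Chrm1 and 1419 for Chrm3. The first rank of Chrm4 thus depends on the length of its model. After a further gap came Chrm3 (10.6 ± 1.57), Drd2, Drd1 and Adrb1, each within 1 SD of the next. The nicotinic subunits were led by Chrna4 (7.88 ± 1.10) and Chrnb2 (6.52 ± 0.685), and the serotonin receptors by Htr2c (4.64 ± 1.61) and Htr1a (4.09 ± 0.764). The lowest tested gene was Chrna2 at 0.144 ± 0.062. Chrm3 held rank 4 of 37 in WT and rank 11 in rNLS8 mice (6.02 ± 0.602, n = 10), Htr1a ranks 13 and 18, and Htr5a ranks 14 and 12.

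**Figure D5:**
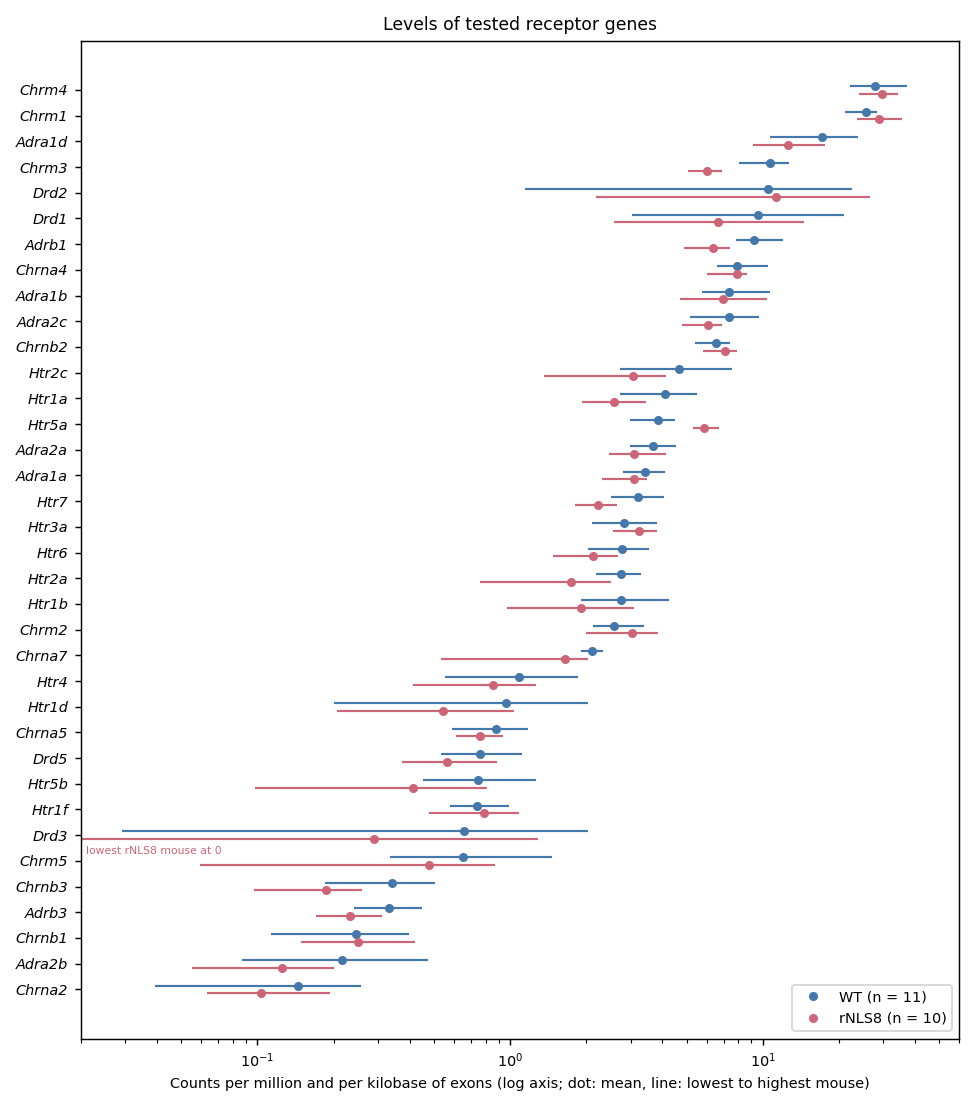
Level of the tested receptor genes described here in CPM per kilobase of exons (log axis), with the mean as a dot and a line from the lowest to the highest mouse, WT in blue and rNLS8 in red. Chrm4 and Chrm1 are at the top, the lines do not overlap for Chrm3, Htr5a and Adrb1, and the lines of Drd1, Drd2 and Drd3 are the longest among the dopamine receptors.

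Genes that act with the receptors were taken as lists, to be read beside the 21.7% of all tested genes that were lower, 23% higher and 44.7% called. Among 14 G proteins and phospholipase C genes, 6 were lower, 4 were higher and 4 were not called (median log2 ratio 0.02). Lower were Gnai1, a Gi alpha subunit (-0.77 ± 0.061 SE, adjusted p = 3.63e-10), Itpr1, the calcium channel opened by inositol trisphosphate (-0.76, adjusted p = 1.06e-08), and Plcb1, the phospholipase C downstream of Gq (-0.58, adjusted p = 1.46e-08). The other 3 lower genes were the alpha subunits Gnaq of the Gq class (-0.19, adjusted p = 0.0105), Gnao1 (-0.20, adjusted p = 2.77e-05) and Gnaz (-0.11, adjusted p = 0.0325). Higher were the Gi alpha subunits Gnai2 (0.42, adjusted p = 9.38e-08) and Gnai3 (0.24, adjusted p = 0.000992), Gna11 of the Gq class (0.23, adjusted p = 5.34e-05) and Plcb2 (0.20, adjusted p = 0.0314). These 3 lower and 4 higher genes were named after their values were seen. Of 16 kinases, arrestins and RGS proteins, which end receptor signalling, 8 were lower and 8 were not called (median -0.17). Rgs4 had -0.98 (adjusted p = 1.31e-10), Gnb5 -0.53 (adjusted p = 3.14e-08) and Rgs14 -0.44 (adjusted p = 1.06e-06). Of 9 nicotinic chaperones and Ly6 modulators, 4 were lower, 1 was higher and 4 were not called (median -0.19). Tmem35a, a chaperone needed for assembly of Chrna7 channels, fell by 0.54 on the log2 scale (adjusted p = 8.06e-07) and Lypd6b by 0.48 (adjusted p = 7.31e-06). Nptn, in the list although it is neither a nicotinic chaperone nor a Ly6 gene, fell by 0.50 (adjusted p = 2.62e-09). For transmitter removal and breakdown, 7 of 10 genes were tested and 1 was lower, the transporter Slc22a3 (-0.60, adjusted p = 0.00289).

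Markers of the cells that release these transmitters were weak. Of 10 genes of cholinergic and monoaminergic neurons, 6 were tested and 1 was lower, Tph2, for serotonin synthesis, with 27.6 ± 7.10 normalized counts in WT and 13.8 ± 3.98 in rNLS8 mice (log2 ratio -0.99 ± 0.18 SE, adjusted p = 6.82e-05). The other 5 tested genes were not called. Slc6a4, also of serotonin neurons, was not tested and had means of 0.94 normalized counts in WT and 1.14 in rNLS8 mice. Tph2, Slc6a4 and Slc22a3 were named after their values were seen. The level of the 6 tested genes was -0.50 to 1.68 in WT and -0.43 to 1.59 in rNLS8 mice as mean log2 CPM. Among other cell types, beside the same shares of all tested genes, 6 of 6 interneuron and 5 of 5 astrocyte markers were lower, as were 3 of 6 layer 5 and 6, 3 of 5 layer 2 to 4 and 2 of 5 excitatory markers, of which 1 was higher. Of the microglial markers 3 of 5 were higher and 1 was lower, whereas the 5 oligodendrocyte, 5 thalamic and 6 choroid plexus markers were not called. Further, 1 of 5 hippocampal and 1 of 6 endothelial and mural markers were lower, and of 4 skeletal muscle genes the 1 tested was lower. The part of these cell types in the receptor results was not tested beyond the striatal covariate.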

How the data were processed

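Bulk RNAseq of neocortex from 11 WT and 10 rNLS8 mice was analysed from a table of whole-number counts per gene symbol that the authors deposited without normalization. RNA that passed the study's integrity check went into mRNA libraries, which were sequenced as paired ends and aligned to GRCm38. The submitters' processing notes name mm10, HISAT, HISAT2, Bowtie, Bowtie2 and RSEM without versions. Which tool counted, the annotation and the use of strand are not given in the sources used here, so reads of genes that overlap on opposite strands may be counted on either. Rows of further copies of a symbol (4.11% of counts) were kept. Total counts per mouse were between 20700912 and 22263809. The floor of 3 counts covers counting error only.

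The members and lists were chosen with earlier results of these data known. Counts were tested in R 4.3.3 with edgeR 4.0.16 (default filter with a minimum count of 10 and a minimum total of 15, TMM normalization, quasi-likelihood test, genotype and batch in the model, two-sided, Benjamini-Hochberg adjustment over 18248 genes, threshold 0.05). For the rNLS8 data the study's methods name DESeq2, and a covariate is not given in the sources used here. Standard errors were derived from each log2 ratio with its F statistic. For normalized counts, each count was scaled to the mean effective library. Marker levels are means of log2 CPM (prior count 2), and relations to them were tested within genotype with 100000 permutations. Named with full values were all receptor genes past the threshold and the gene with the most counts of each family, and at most 3 genes with 50 or more mean counts of each list, apart from list genes said to be named after their values were seen. Alternatives were DESeq2 1.42.0, no batch term, other scalings and filters, each batch alone, Xist as a covariate, no copy rows, and leaving out mice. The procedure was tested on simulated data. Each mouse was taken as a sample of its own, and mice that share a litter are not marked in the labels. Some genes of the counts and lists are not reported here by name.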

Additional observations from a re-analysis of the deposited data

Results flagged for a closer look

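For 7 of the 37 tested receptor genes, 1 rNLS8 mouse lay far from the other 9, with a gap to its nearest neighbour, as a share of the range of the group, above Dixon's 5% critical value for 10 samples. Chance alone exceeds it in about 1 in 20 groups, and the genes are not independent of each other. The library labelled rNLS8 replicate 9 was lowest for Chrna7 (51.4 normalized counts, next 153, share 0.703) and for Adra1a (429, next 536, share 0.483). In rNLS8 replicate 1, the mouse with the highest striatal marker level of its genotype, Drd3 (47.0, share 0.553), Drd1 (1126, next 662, share 0.50) and Drd2 (1438, next 814, share 0.473) were highest. The other 2 were Adra2c, lowest in rNLS8 replicate 3 (353, next 434, share 0.523), and Chrnb1, highest in rNLS8 replicate 8 (22.7, next 15.7, share 0.48).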

How the results depend on the processing

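Over the settings other than leaving out 1 mouse, 398 of the values of single receptor genes kept their direction and their side of the threshold, 55 lost the call, 7 gained it and 12 changed sign. Of the 23 calls, Chrm3, Adrb1, Htr1a, Htr7 and Htr5a were kept in every setting run. Batch A alone gave 2195 genes of all tested (1298 higher, 897 lower) and 7 receptor genes (1 higher, 6 lower), in fewer mice. Batch B alone gave 14 receptor genes, 12 of them lower, and the striatal covariate, added after the data were seen, 15, of them 13 lower. Without rNLS8 replicates 8 and 9, left out because an earlier look at these data had found them apart, 17 receptor genes were called, 15 of them lower, beside 3726 lower and 3942 higher among all tested genes, and the calls of Adra1a, Adra2a, Adra2c, Drd1, Drd3 and Drd5 were lost. The number of higher receptor genes was 1 without a batch term, 1 with Xist as a covariate and 5 with library size only. No gene that changed sign was called in the fit to all mice. Drd2 turned to 0.11 without a batch term, 0.0090 with library size only, 0.26 in batch B, 0.011 without rNLS8 replicates 8 and 9, and 0.78 with the striatal covariate. Chrna4 turned to 0.068 with library size only, 0.0067 with no filter, 0.13 in batch A and 0.0023 without rNLS8 replicates 8 and 9. In batch A, Adra1b turned to 0.17, Chrnb1 to -0.0052 and Htr1f to -0.26. The cause was not tested.

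Leaving out each mouse in turn gave 18 to 24 receptor genes (17 to 21 lower, 1 to 4 higher), beside 7805 to 8363 of all tested genes (3759 to 4098 lower, 4020 to 4265 higher), and a median log2 fold change of -0.42 to -0.31. The higher genes numbered 1 without any 1 of WT replicates 3, 6 and 7 or rNLS8 replicates 7 and 10, and 4 without WT replicate 8 or rNLS8 replicate 8. Chrna4 ranged from -0.040 to 0.036, Drd2 from -0.24 to 0.17 and Chrnb1 from -0.087 to 0.13. Of the calls, 16 lower ones and that of Htr5a held in all 21 fits, and those of Adra1a, Adra2c, Chrm2, Drd1, Drd3 and Drd5 did not. No paired analysis was possible because the labels give no replicate numbers shared between the genotypes. Genes with fewer than about 10 counts a mouse are limited by depth.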
